A study of Homo sapiens with 4 samples.

Results

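The genes described here encode factors of the small subunit processome and other nucleolar proteins that assemble ribosomes. They were chosen by name: the UTP, NOP, NOL and RRP genes with a number after the stem, WDR3, WDR36, WDR43, WDR46 and WDR75 (which matched no row), IMP3, IMP4, the NOC genes NOC2L, NOC3L and NOC4L, and 14 further genes such as FBL, NCL, NPM1 and BYSL. The rule found 53 of the 12153 genes in the count table. Each gene was represented by its mRNA row with the highest summed count, and 51 of the 53 passed the filter on low counts.

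Messenger RNA of PLC/PRF/5, an established human liver cancer line, was sequenced in 2 control libraries and 2 libraries with lentiviral knockdown of USP22. USP22 is the deubiquitinase of the SAGA coactivator and acts on histone H2B. Controls and knockdown cells alike grew in high-glucose DMEM and spent 48 h in an atmosphere of 1% oxygen and 5% carbon dioxide, so the comparison concerns USP22 loss in hypoxic cells and no normoxic library was analysed here. The labels call the control NC, name neither the hairpin sequence nor the number of hairpins or clones, and do not say that the 2 libraries of a group were separate cultures, so p-values measure only the spread between these libraries, which may be technical.

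The libraries held 15027209 to 17194929 counts, with the totals of control and knockdown libraries overlapping. The USP22 transcript had 46513 and 41607 counts without and 5438 and 7683 counts with the hairpin, and fell 6.83-fold (log2 fold change −2.77 ± 0.17 SE, adjusted p = 1.36e-06). CPM below stands for a count divided by the normalized size of its library. All 10 hepatocyte and hepatoma markers listed were tested, among them albumin (ALB) at 548 to 795 CPM. AFP, APOB and FGB rose and AHSG fell, and the summed level of the 10 was 30225 and 28413 CPM in the controls against 44816 and 35269 CPM after knockdown. APOB weighs most in the rise of this sum, with 11626 and 8796 CPM in the controls against 27525 and 16630 CPM after knockdown, and the list's median log2 fold change was −0.10, with 4 of 10 above 0. Of 3 cholangiocyte markers KRT7 and EPCAM fell, EPCAM on 7 to 62 counts, and KRT19 did not pass (log2 fold change 0.37). Their sum was 27.2 and 42.4 CPM in the controls against 44.8 and 24.6 CPM after knockdown. Of 3 endothelial markers in the table PECAM1 rose, CDH5 did not pass (−0.73), and VWF had too few counts to be tested. The 2 tested endothelial markers summed to 17.4 and 11.1 CPM in the controls against 29.6 and 23.2 CPM after knockdown. Fibroblast markers summed to 18.1 to 24.2 CPM, and of 5 leukocyte markers only CD68 had a row. The part of these markers in the results below was not tested, and fewer cells of a type and less RNA per cell cannot be told apart in bulk RNA.

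A ribosome begins as a long precursor RNA that RNA polymerase I transcribes in the nucleolus. The small subunit processome, a large particle built from the U3 small nucleolar RNA and many proteins, forms on the 5′ part of this precursor and guides the cuts and folding that release the small subunit RNA. Box C/D and H/ACA particles modify the ribosomal RNA at single nucleotides, and a separate set of factors, including the PES1, BOP1 and WDR12 trimer, processes the RNA of the large subunit. Demand for these factors follows cell growth, and many of their genes are known targets of MYC.

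Many of these transcripts rose in the knockdown and 0 fell. Of the 51 tested, 28 rose, 0 fell and 23 did not pass at a Benjamini-Hochberg adjusted p under 0.05 (quasi-likelihood test of edgeR). Over all 12337 tested transcripts, 8.49% rose and 10.2% fell. At an unadjusted p under 0.05, 1 member was lower (IMP3), and DESeq2 and limma-voom also called 28 higher and 0 lower. The median log2 fold change of the tested members was 0.59, a 1.51-fold increase, beside 0.000736 over all tested transcripts. Individual values ran from −0.39 to 1.80, and 48 of 51 lay above 0. Of the 28 that rose, 15 were 2-fold or more higher. Both knockdown libraries lay above both control libraries for 40 members and below them for 3, and the groups overlapped for 8. The same held for 29.3% (above) and 30.3% (below) of all tested transcripts. With a filter of 5 CPM in 2 libraries, 28 of 46 members rose and 0 fell. Of all transcripts kept by that filter 14.1% rose and 15.5% fell. In the authors' deposited table, 30 members have a q-value under 0.05 with a positive fold change and 0 with a negative one, beside 10.7% and 11.4% of all its rows. The 28 called here are among those 30, and the other two are NOL9 and RRP1.

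Relative to the mean of the controls, the median member stood at −0.04 and 0.03 on the log2 scale in control replicates 1 and 2, and at 0.58 and 0.71 in knockdown replicates 1 and 2. The median over all tested transcripts stood at −0.0079 and 0.010 in the controls, and at −0.016 and −0.023 after knockdown. Members above the control mean numbered 21 and 30 of 51 in the controls, against 45 and 46 after knockdown. Counts of the tested members made up 0.457% and 0.492% of the controls, against 0.716% and 0.788% after knockdown, a share in which NCL weighs most. The member medians of the 2 groups did not overlap, and knockdown replicate 2 was the higher of its pair.

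**Figure D1:**
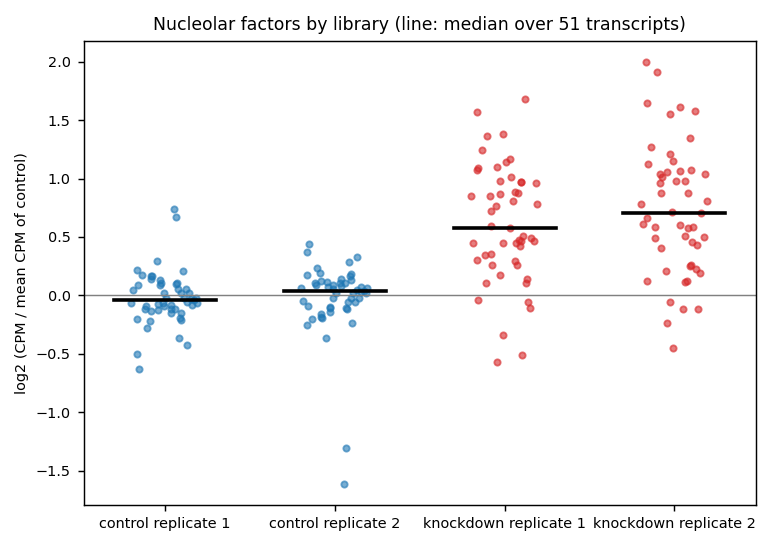
Each point is 1 of the 51 tested member transcripts, plotted as log2 of its CPM over its mean CPM in the control libraries (y axis) in each of the 4 libraries (x axis), with a black line at the median. The medians are −0.04 and 0.03 in control and 0.58 and 0.71 in knockdown libraries, and 45 and 46 of the 51 points lie above 0 in the knockdown libraries.

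**Figure D2:**
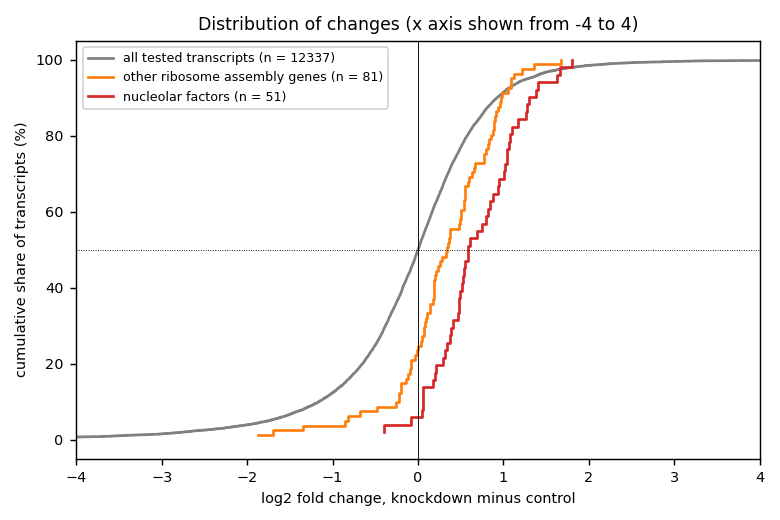
Cumulative share of transcripts (y axis, %) by log2 fold change of knockdown minus control (x axis) for all 12337 tested transcripts, 81 other ribosome assembly genes and the 51 tested members. The curve of the members crosses 50% at 0.59, that of the other assembly genes at 0.34 and that of all transcripts at 0.000736.

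The promoters of the members were examined because so many of the transcripts moved together. RefSeq windows of assembly GRCh38.p14, reaching from 250 bases before to 50 bases after the start of the gene, were matched by symbol for 46 of the 53 members (not for BOP1, NOLC1, NOP58, RRP12, RRP1B, RRS1 and UTP23). The E-box CACGTG, the same on both strands and bound by MYC and other basic helix-loop-helix factors, was present in 19 of the 46 (41.3%). Among the tested genes of the table with such a window 12.3% held it, and among all genes with a window 8.77%. Of the 67 tested companion genes of ribosome assembly with a window, described at the end, 20 held it (29.9%), also a higher share than among tested genes. Of the 22 members that rose and had a window, 10 held an E-box (45.5%), and of the 22 that were tested and did not pass, 8 did (36.4%). Differences between these shares were not tested. The shorter motif ACGTG, the core of hypoxia response elements, is contained in every CACGTG and was found on either strand in 60.9% of the member windows, 46.3% of the companion windows and 30.9% of those of tested genes. The motif CCGGAAG, read by ETS factors and searched on both strands, was in 37.0% of the member windows, 49.3% of the companion windows and 21.3% of those of tested genes. The TATA box core TATAAA, the fourth motif searched, was in 4.35%, 4.48% and 8.51%. A match is a description of the letters in the window and shows no binding.

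The 30 bases around each E-box of the members that rose are given below, read 5′ to 3′ on the strand of the gene with the E-box in capitals. The window ends 50 bases after the start, so every motif found after the start lies within 50 bases of it. These positions therefore cannot show whether the motifs gather at the start. Positions count the first transcribed base as 1 and the base before it as −1, and refer to the first base of the motif.
UTP4, chr16:69132621-69132650, plus strand, position −16: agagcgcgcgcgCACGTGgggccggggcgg
NOP14, chr4:2963374-2963403, minus strand, position 16: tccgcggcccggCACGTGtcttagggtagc
RRP9, chr3:51941892-51941921, minus strand, position −5: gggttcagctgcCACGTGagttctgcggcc
UTP14A, chrX:129905914-129905943, plus strand, position −241: accttgggcCACGTGgaaaccaggggccag
UTP20, chr12:101280083-101280112, plus strand, position −10: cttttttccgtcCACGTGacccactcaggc
BYSL, chr6:41921515-41921544, plus strand, position 29: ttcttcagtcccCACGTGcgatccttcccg
WDR46, chr6:33289190-33289219, minus strand, position 42: tggcagctgagaggagttttgCACGTGgat
UTP18, chr17:51260445-51260474, plus strand, position −89: gggagtgctggtCACGTGgcaagaggctgc
UTP18, chr17:51260538-51260567, plus strand, position 5: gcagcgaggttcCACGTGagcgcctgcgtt
NOL6, chr9:33473894-33473923, minus strand, position 14: ggcatttccgccCACGTGggaagctatgag
WDR43, chr2:28894658-28894687, plus strand, position 4: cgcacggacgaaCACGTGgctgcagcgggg
Members that did not pass also hold the motif. In both sets some sites lie farther from the start, such as −241 in UTP14A, which rose, and −149 in NOL7, which did not pass. Sites not printed lie at −203 and 16 in IMP4, 20 in NOC3L, −149 in NOL7, −9 in NOL8, −170 in NOP10 and 36 in NOP2. The following 3 were picked with their values known.
FBL, chr19:39846356-39846385, minus strand, position 7: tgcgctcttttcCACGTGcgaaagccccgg
NOP10, chr15:34343130-34343159, minus strand, position −11: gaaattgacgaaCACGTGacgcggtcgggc
NAT10, chr11:34105602-34105631, plus strand, position −15: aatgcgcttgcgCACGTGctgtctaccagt

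The UtpA subcomplex binds the precursor RNA first and is also needed for its transcription. Of its 5 tested members 4 rose, with a median log2 fold change of 1.04. HEATR1, the human Utp10 protein, had 161 and 166 CPM in the control and 362 and 322 CPM in the knockdown libraries. The groups were far apart, and HEATR1 rose 2.09-fold (log2 fold change 1.06 ± 0.16 SE, adjusted p = 0.000631). It shares 23.2% of its exonic bases with LGALS8 on the other strand. UTP4, whose gene is mutated in an inherited childhood cirrhosis of North American Indian children, had few counts, 35 and 33 in control and 103 and 109 in knockdown libraries, and rose 3.09-fold (adjusted p = 0.00959). NOL11, a partner of UTP4, rose from 4.99 and 5.57 to 10.6 and 11.1 CPM (adjusted p = 0.0304). WDR43, the human counterpart of yeast Utp5, rose from 151 and 168 to 225 and 260.5 CPM, a 1.52-fold increase (adjusted p = 0.0223). The calls of NOL11 and WDR43 were lost without either control library and without knockdown replicate 2, at log2 fold changes of at least 0.50. UTP15, at 24 to 49 counts, had overlapping groups and did not pass (0.51, 95% interval −0.58 to 1.60).

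Of 5 UtpB subunits 3 rose and 0 fell, with a median log2 fold change of 0.53. WDR3 had 67.4 and 62.4 CPM in control and 119 CPM in both knockdown libraries, and rose 1.83-fold (adjusted p = 0.00363). UTP18, also a WD-repeat protein, had 102 and 111 CPM in control and 183 and 186 CPM in knockdown libraries, so that the gap between the groups exceeded the spread within them (log2 fold change 0.80 ± 0.16, adjusted p = 0.00481). TBL3 rose least of the 3, from 119.9 and 113 to 159 and 178 CPM (1.45-fold, adjusted p = 0.0405). UTP6, by contrast, had 201 and 195 CPM in control and 191 and 182 CPM in knockdown libraries, with a log2 fold change of −0.09 (95% interval −0.43 to 0.26) that did not pass. WDR36, linked to glaucoma, did not pass at 0.20 (−0.19 to 0.58). The intervals of UTP18 (0.44 to 1.15) and UTP6 do not overlap, and a difference between these genes was not tested further. The TBL3 call was lost without either control library and without knockdown replicate 2, and that of UTP18 without control replicate 1 (0.74, adjusted p = 0.0542). In GENCODE models TBL3 shares 29.9% of its exonic bases with NOXO1, and WDR3 17.1% with SPAG17, each on the other strand. These libraries do not mark strand.

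Of 6 proteins of the U3 particle, the box C/D snoRNPs and the MPP10 complex, 3 rose and 0 fell, with a median log2 fold change of 0.64. RRP9, the U3-specific WD-repeat protein, had 19.2 and 24.9 CPM in control and 46.2 and 68.9 CPM in knockdown libraries, and rose 2.61-fold (log2 fold change 1.39 ± 0.24, adjusted p = 0.00178). NOP58, a core box C/D protein, rose from 196 and 212 to 279 and 334 CPM (log2 fold change 0.59, adjusted p = 0.0256), a call lost without either control library and without knockdown replicate 2. UTP3, the human counterpart of yeast Sas10, rose from 43.1 and 50.3 to 86.3 and 92.4 CPM (1.91-fold, adjusted p = 0.00387). FBL, fibrillarin, the methyltransferase of the box C/D particle, had 313 and 336 CPM in control and 359 and 438 CPM in knockdown libraries. Its groups did not overlap, but the log2 fold change of 0.29 (−0.06 to 0.65) did not pass (adjusted p = 0.236), and passed only without knockdown replicate 1 (0.47, adjusted p = 0.0389) among the alternatives run. IMP3, which joins U3 to the precursor within the MPP10 complex, was lower in both knockdown libraries, with 257 and 284 CPM in control and 181 and 229.7 CPM in knockdown libraries. It did not pass (log2 fold change −0.39, adjusted p = 0.134), but was called lower without knockdown replicate 2 (−0.56, adjusted p = 0.0297). It shares 59.3% of its exonic bases with other genes, SNX33 on the other strand first among them. IMP4, the partner of IMP3, rests on 43 to 105 counts of 1 of its 16 RefSeq accessions and did not pass.

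H/ACA particles convert uridine to pseudouridine, and neither of their 2 members here passed. NOP10 had 176 and 184 CPM in control and 167 and 206 CPM in knockdown libraries, with overlapping groups and a log2 fold change of 0.05 (−0.31 to 0.42). DKC1, the pseudouridine synthase dyskerin, had 100 and 26 counts in the controls against 82 and 97 after knockdown for the single accession in the table, and its control libraries stood too far apart for a direction: without control replicate 1 it was called higher (1.78, adjusted p = 0.0122) and without control replicate 2 its log2 fold change was −0.17. NHP2, another H/ACA core protein outside the list, rose from 69.0 and 73.3 to 125 and 147 CPM (adjusted p = 0.00282).

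Of the 16 other factors of the small subunit processome and the early small subunit, 9 rose and 0 fell, with a median of 0.78. UTP20, a very large scaffold protein, had 79.0 and 76.7 CPM in control and 203 and 173 CPM in knockdown libraries. Both knockdown libraries were more than 2 times as high as either control library (2.42-fold, log2 fold change 1.27 ± 0.17, adjusted p = 0.000304). NOP14, a core processome protein, rose from 11.9 and 13.9 to 28.8 and 39.4 CPM (2.65-fold, adjusted p = 0.00192). It shares 17.1% of its exonic bases with an antisense gene on the other strand. BYSL, bystin, which stays on the small subunit precursor into the cytoplasm, rose from 37.6 and 49.3 to 85.1 and 110.3 CPM (log2 fold change 1.17, adjusted p = 0.00202). WDR46, the human Utp7 protein, rose from 17.9 and 21.1 to 41.8 and 40.4 CPM (2.11-fold, adjusted p = 0.00435).

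NOC4L, the partner of NOP14, rose 1.80-fold from 41.8 and 49.8 to 75.4 and 89.2 CPM (adjusted p = 0.00872). UTP23, related to the endonuclease-fold protein of the same name in yeast, rose 1.76-fold (adjusted p = 0.0185), and NOL6, the human Utp22 protein, 1.67-fold from 75.4 and 61.5 to 103 and 126 CPM (adjusted p = 0.0148). NOP9, an RNA-binding repeat protein, had 113 and 89 counts in the controls against 227 and 262 after knockdown (2.39-fold, adjusted p = 0.00862). It shares 36.9% of its exonic bases with other genes, mostly CIDEB on the other strand. UTP14A had 92 and 81 counts in the controls against 161 and 273 after knockdown (2.45-fold, adjusted p = 0.0122). UTP14C, an intronless copy of UTP14A, had 45.1 to 63.3 CPM and did not pass (0.37, −0.04 to 0.78), and the near-identical sequences of the 2 genes make both values uncertain. UTP14C also shares 74.2% of its exonic bases with ALG11. Calls were lost without control replicate 1 (NOC4L, UTP23), without control replicate 2 (NOL6, NOP9, UTP23) and without knockdown replicate 2 (UTP14A).

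The members of this group that did not pass ranged from NAT10 to RRP12. NAT10, the enzyme that acetylates cytidines of the small subunit RNA, was lower in both knockdown libraries, with 18.8 and 21.3 CPM in control and 15.9 and 14.7 CPM in knockdown libraries, and did not pass (log2 fold change −0.39, −0.92 to 0.13, adjusted p = 0.293). KRR1, a KH-domain protein of the processome, and UTP11 had overlapping groups at 0.06 (−0.34 to 0.46) and 0.05 (−0.36 to 0.45). RRP7A, a partner of NOL6, had 87.3 and 98.9 CPM in control and 100.1 and 131 CPM in knockdown libraries (0.31, −0.09 to 0.72) and passed without knockdown replicate 1 (0.53, adjusted p = 0.0468). RRP12, an export factor of the small subunit, was at 0.50 (−0.08 to 1.07), and NOL7 at 0.17 with overlapping groups.

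Of the 13 tested factors of the large subunit 7 rose and 0 fell, with a median log2 fold change of 0.55. They include the 2 members with the highest fold changes, RRS1 and BOP1, followed by UTP4 of UtpA. RRS1, which brings the 5S RNA and its proteins into the large subunit precursor, had 1012 and 1893 counts in the controls against 4067 and 6208 after knockdown, or 63.9 and 117 CPM and 269 and 362 CPM. The control libraries differed by a larger ratio than the knockdown libraries did, and the lowest knockdown value was more than 2 times the highest control value (3.48-fold, log2 fold change 1.80 ± 0.25, adjusted p = 0.000356). Another gene model on the same strand covers 11.4% of the exonic bases of RRS1. BOP1 rose from 44.8 and 64.0 to 139.7 and 204 CPM (3.16-fold, adjusted p = 0.000323). WDR12, its partner in the trimer with PES1, rose from 70.0 and 85.1 to 152 and 163 CPM (2.03-fold, adjusted p = 0.00165). PES1 itself could not be tested: the single accession in the table, of 4 in RefSeq, held 9 and 2 counts in the controls against 0 and 4 after knockdown, where a count of 0 allows up to 3.

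NOL12, an RNA-binding protein that separates the precursors of the small and large subunits, rose 2.07-fold from 19.8 and 17.3 to 33.8 and 42.8 CPM (adjusted p = 0.00681). Another gene model on the same strand covers 22% of the exonic bases of NOL12. The increases of the other large subunit factors were smaller. RRP15 rose from 46.3 and 56.6 to 76.8 and 78.3 CPM (adjusted p = 0.0453), NOC2L, a nucleolar protein that also binds histones, from 259 and 266 to 374 and 394 CPM (adjusted p = 0.0251), and RRP1B, a nucleolar protein that also binds protein phosphatase 1, from 256 and 269 to 363 and 369.9 CPM (adjusted p = 0.0438). These 3 folds were 1.51, 1.46 and 1.40, and the calls were lost without either control library, those of RRP15 and RRP1B also without knockdown replicate 2. RRP1, the paralog of RRP1B, had 122 and 142 CPM in control and 168 and 198 CPM in knockdown libraries and did not pass (0.47, 0.10 to 0.84, adjusted p = 0.0769), although it passed without knockdown replicate 1 (0.62, adjusted p = 0.00967). NOL9, a polynucleotide kinase of the large subunit pathway, had 48.1 and 75.4 CPM in control and 85.7 and 92.3 CPM in knockdown libraries and did not pass (0.53, adjusted p = 0.113). Its fold change was 0.24 without control replicate 1 and 0.91 (adjusted p = 0.0256) without control replicate 2, and it passed at 0.62 without knockdown replicate 1 (adjusted p = 0.0264).

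The remaining large subunit members did not pass or could not be tested. NOP2, a methyltransferase of the large subunit RNA, had 21 and 45 counts in the controls against 66 and 77 after knockdown (log2 fold change 1.10 ± 0.46, adjusted p = 0.118), and passed at 1.75 without control replicate 2 (adjusted p = 0.0269). Another gene model on the same strand covers 54.4% of its exonic bases. RRP8, which methylates an adenine of the large subunit RNA, was at 0.38 (−0.08 to 0.85), NOC3L at 0.21 (−0.18 to 0.59) and NOL8 at 0.41 on 3 to 15 counts. NOP16 was not tested, with 2 and 0 counts in the controls against 5 and 24 after knockdown.

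Of the 3 abundant nucleolar proteins 2 rose. NCL, nucleolin, which binds ribosomal RNA precursors and chromatin, had 12623 and 17188 counts in the controls against 25299 and 32882 after knockdown, or 797 and 1063 CPM and 1673 and 1915 CPM (1.93-fold, log2 fold change 0.95 ± 0.17, adjusted p = 0.00192). NOLC1, the chaperone of snoRNPs also known as Nopp140, rose from 12.3 and 12.7 to 24.4 and 25.6 CPM (2.00-fold, adjusted p = 0.0111), but did not pass when control replicate 1 was left out (adjusted p = 0.0568). These values are those of the higher of 2 NOLC1 rows. The other NOLC1 row had 76 and 48 counts in the controls against 108 and 99 after knockdown. That row did not pass (0.73, adjusted p = 0.203). The higher of the 2 NPM1 rows (nucleophosmin) had 103 and 132 CPM in control and 158 and 139.9 CPM in knockdown libraries and did not pass (0.34, −0.05 to 0.73, adjusted p = 0.218). The other NPM1 row, with 826 and 1002 counts in the controls against 1310 and 1510 after knockdown, rose (0.61, adjusted p = 0.0339), and the rows summed per gene did not pass (0.45, adjusted p = 0.0753). NPM1 has processed pseudogenes, which makes its counts uncertain. NOL4L, which shares the NOL name but has no known part in ribosome assembly, had 14 to 31 counts and did not pass.

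**Figure D3:**
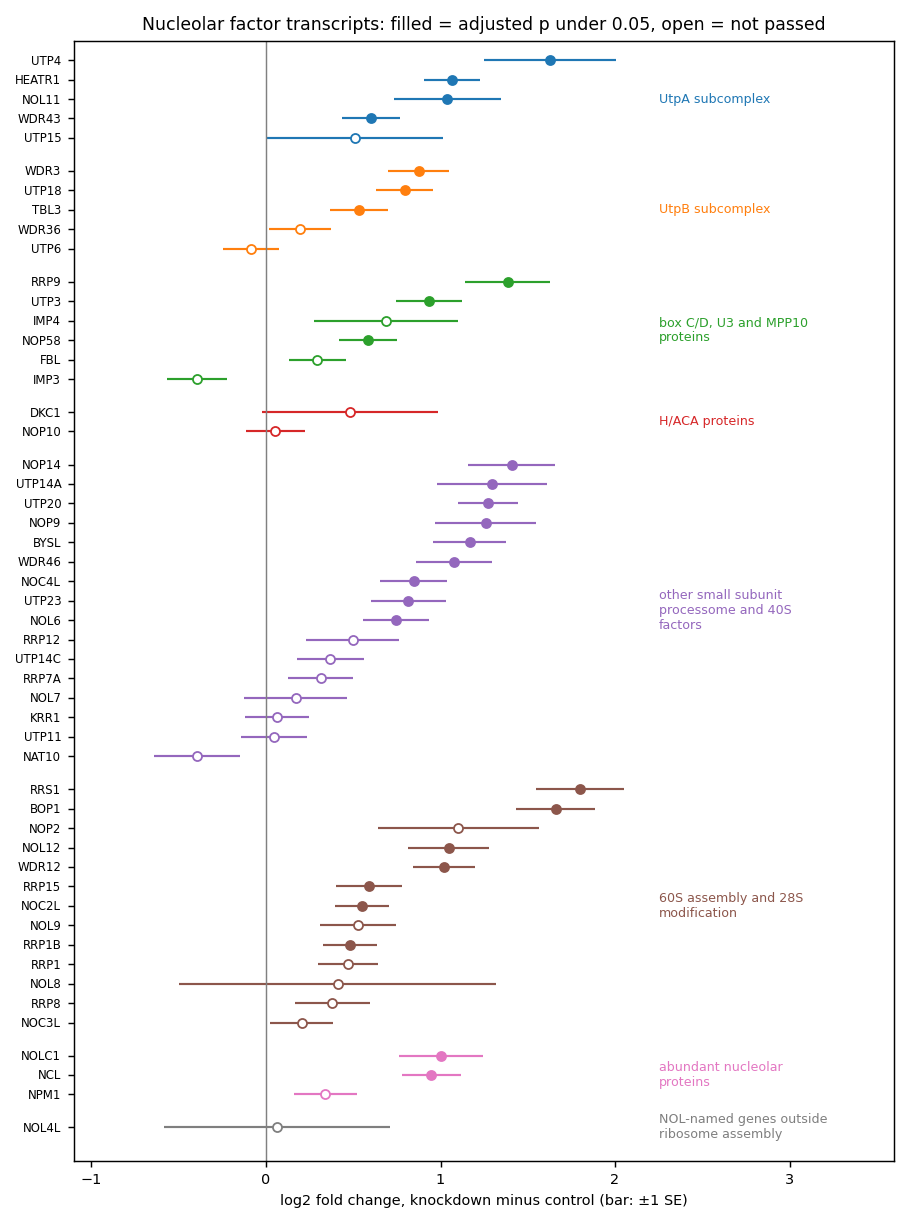
Log2 fold change of knockdown minus control (x axis, bars ±1 SE) for each of the 51 tested member transcripts, grouped and coloured by role, with filled points for an adjusted p under 0.05. The 28 filled points all lie right of 0, between 0.48 and 1.80, and UTP6, IMP3 and NAT10 are the 3 open points left of 0.

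**Figure D4:**
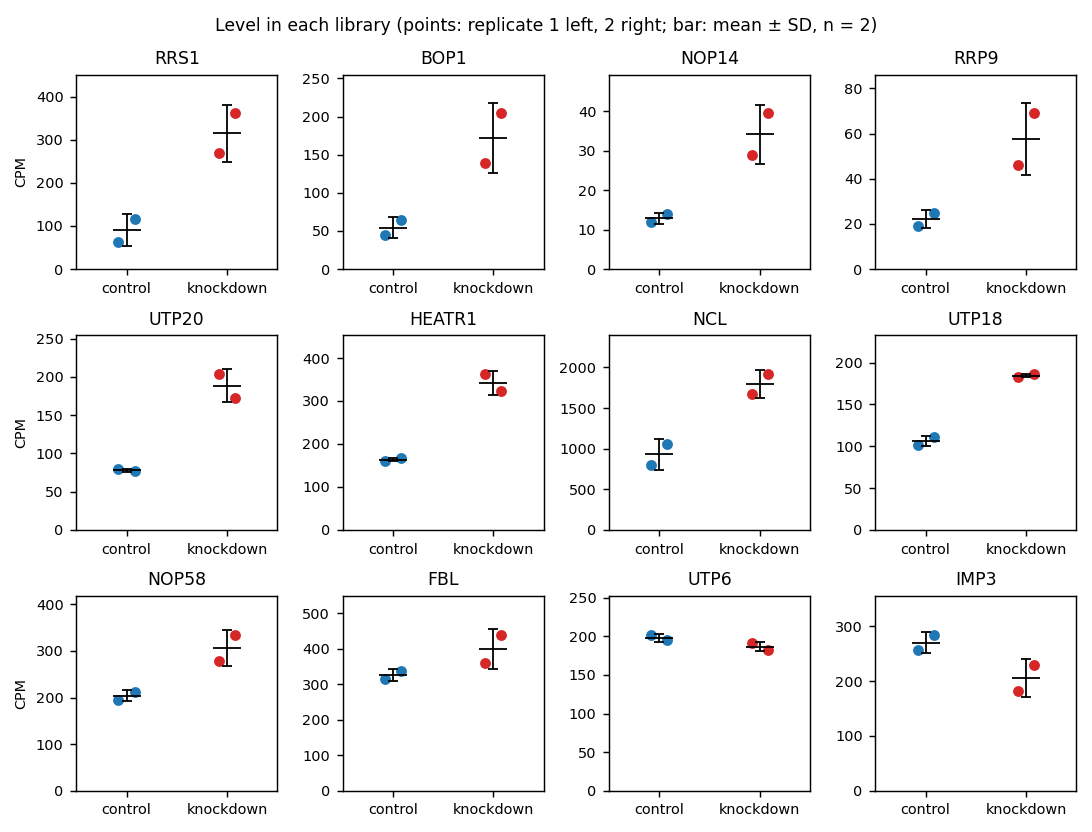
Normalized level (y axis, CPM from 0) of 12 members in the 2 control libraries (blue) and 2 knockdown libraries (red), with the mean and SD of each group in black. The groups are apart for each of the 12 genes, upward for RRS1 to FBL in reading order and downward for UTP6 and IMP3, and FBL, UTP6 and IMP3 did not pass.

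The table has a row for each mRNA accession rather than for each gene. For 31 members RefSeq lists a single mRNA accession, and 18 of these rose and 0 fell, where 11.8% of all tested transcripts of such genes rose. Of 20 tested members with several accessions, each described by 1 of them, 10 rose and 0 fell, where 8.49% of all tested transcripts rose. The share among all genes with several accessions was not computed. Median summed counts were 497 over all tested transcripts and 3437.5 over those of genes with a single accession. Summing all rows per gene left 28 members higher and 0 lower, beside 9.95% and 11.3% of all genes tested this way. Only NOP2, NOLC1, NPM1 and NOL4L have more than 1 row, so summing changes few members and cannot restore accessions without a row.

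Other genes of ribosome assembly were counted from lists drawn up by function, with earlier results of these data known. Among 81 tested genes 23 rose (28.4%) and 2 fell, with a median log2 fold change of 0.34. The shares over all tested transcripts were 8.49% higher and 10.2% lower, with a median of 0.000736. When either control library was left out, fewer companion genes were called higher, and so were fewer of all tested transcripts. A difference between the 28.4% of these companion genes and the share of the members was not tested. Other small subunit and H/ACA genes rose in 7 of 26 cases and fell in 0, led by NHP2 and by DIMT1, the dimethyltransferase of the small subunit RNA (31.2 and 40.9 to 66.5 and 67.0 CPM, adjusted p = 0.00869). PWP2 of UtpB (0.10, −0.26 to 0.46) and MPHOSPH10 of the MPP10 complex (0.18, −0.20 to 0.56), named after their values were seen, did not pass.

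Other large subunit factors rose in 10 of 35 cases and fell in 1. LAS1L, which takes part in the cut that separates the 5.8S and 28S RNAs, rose from 3.98 and 3.03 to 8.20 and 8.09 CPM (adjusted p = 0.0265). The LAS1L row, 1 of 16 accessions, held 49 to 139 counts. DDX54, a helicase described by 1 of 2 accessions, rose from 9.22 and 8.84 to 15.9 and 22.5 CPM (adjusted p = 0.0151). SBDS, the Shwachman-Diamond syndrome protein that acts at the last, cytoplasmic step, went the other way, from 278 and 264 to 167 and 140.1 CPM (1.77-fold lower, adjusted p = 0.00419). Of 8 RNA polymerase I genes 2 rose. POLR1A, its largest subunit, went from 194 and 217 to 367 and 435 CPM (1.95-fold, adjusted p = 0.0015). UBTF, an activator of its transcription, rose on 21 to 108 counts of 1 of its 3 accessions (3.19-fold, adjusted p = 0.0213). Nuclear exosome genes, which trim the precursor, rose in 4 of 12 cases and fell in 1. EXOSC4 rose from 370 and 448 to 772 and 1364 counts (2.56-fold, adjusted p = 0.00179) and EXOSC6 from 33.8 and 44.5 to 65.3 and 105 CPM (2.18-fold, adjusted p = 0.00591). The EXOSC1 row, 1 of 6 accessions with 9 to 64 counts, fell (adjusted p = 0.0376). Leaving out 1 library ended the calls of DIMT1 (control replicate 1), LAS1L (control replicate 2), DDX54 (knockdown replicate 2), UBTF (control replicate 2 or knockdown replicate 2) and EXOSC1 (control replicate 1 or knockdown replicate 1), and EXOSC1 did not pass in DESeq2 or limma-voom (adjusted p = 0.0576 and 0.0527, over all alternatives up to 0.197).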

How the data were processed

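The authors deposited raw counts per RefSeq mRNA accession (14540 rows) and, from their own comparison, a log2 fold change with its p-value and q-value, per the file headers. Bcl2fastq, HISAT2 2.1.0, HTSeq and build hg19 are listed in the submitters' processing notes. The counting rules and the authors' test were not given in the sources used here. Per the labels' protocols, the NEBNext Ultra RNA kit was used on isolated mRNA. It does not mark strand.

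Samples were grouped by title. Rows were kept by filterByExpr (minimum count 10; 12337 kept, 2203 removed) in edgeR 4.0.16 (R 4.3.3), normalized by TMM and tested for knockdown minus control by the quasi-likelihood test without covariates, with Benjamini-Hochberg adjustment over all tested rows and a threshold of 0.05. This test gives every adjusted p unless another tool is named. CPM divides each count by the library total after TMM. The SE is the absolute log2 fold change over the square root of F, and intervals are 95%. The common biological coefficient of variation was 22.1%. Both replicate pairs varied beyond sampling noise (chi-square per degree of freedom 17.9 in control, 33.7 in knockdown). Alternatives were DESeq2 1.42.0, limma-voom 3.58.1, other scalings, filters and thresholds, a replicate block, rows summed per gene, and leaving out each library. The script was tested on simulated data.

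Members and lists were chosen with earlier results of these data known. Named were USP22, every member that passed, the 2 members with the highest mean per role, members that were not tested, the largest change in a role where 0 passed, and per companion list the 2 largest changes in each direction. Further members and the marker genes were named after their values were seen. Accessions per gene, from a RefSeq table (GRCh38.p14), matched 98.5% of rows. Promoter windows are RefSeq's for that build, and exon overlap comes from GENCODE v29. Neither is the authors' build.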

Additional observations from a re-analysis of the deposited data

How the results depend on the processing

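Across the alternatives, 757 of the single-gene values kept their direction and side of the threshold, 80 lost a call, 12 gained one and 12 changed sign. Of the 28 members that rose, 14 kept the call in all 12 alternatives other than the stricter thresholds. Members that rose numbered 19 to 32 when 1 library was left out, and 0 to 1 fell, where IMP3 was the one that fell. The median log2 fold change over all tested members was 0.58 to 0.75. Over all transcripts, 685 (without control replicate 1) to 1340 were called higher and 1020 to 1297 lower. Companion genes called higher were 14 to 23 and lower 1 to 2. Such fits leave 1 library in an arm, assumed to vary like the other group, and have fewer degrees of freedom.

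An adjusted p under 0.01 left 17 members, 11 companion genes and 433 transcripts higher, and 1 companion gene and 686 transcripts lower. Testing against a fold of 1.5 left 9 members, 1 companion gene and 254 transcripts higher, and 0 companion genes and 583 transcripts lower. Companion genes called lower numbered 1 with DESeq2, with limma-voom and with a filter of 5 CPM. Restricting to genes with a single RefSeq accession, chosen after seeing the data, left 18 members higher. The titles number the replicates, but nothing else pairs them (correlation of same-numbered deviations 0.153). With this number as a block 1672 transcripts (13.6%) were called higher and 1859 (15.1%) lower, beside 8.49% and 10.2% without it. With the block 31 members were called higher and 1 member lower, which was IMP3 (−0.40, adjusted p = 0.0188). NOL9, NOP2 and RRP1 were the 3 added to those higher.

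Among the named genes, signs changed only for members that did not pass. When 1 library was left out, the log2 fold change ran from −0.17 to 1.78 for DKC1, from −0.31 to 1.98 for NOL8 (also −0.07 without knockdown replicate 1), from −0.15 to 0.61 for NOL7, from −0.051 to 0.21 for KRR1 (also −0.019 without knockdown replicate 1), from −0.49 to 0.49 for NOL4L (also −0.12 without control replicate 2), from −0.096 to 0.23 for NOP10, and from −0.027 to 0.16 for UTP11 (also −0.022 without control replicate 2). With rows summed per gene NOL4L was at −0.24. The cause was not tested.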
